A study of Homo sapiens with 20 samples.

Results

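Of the 572000 distinct pairs of chromatin anchors listed in at least 1 of 4 glioblastoma multiforme (GBM) cell lines, 7635 (1.33%) were listed in both STAG2-corrected lines and in neither STAG2-mutant line. These 7635 corrected-only pairs were chosen by listing alone, that is by a loop strength high enough for the list of each corrected line and not for that of either mutant line. Both anchors had to be the same fragment bins in H4 88-1 and in 42MGBA 53-1, and the same pair had to be absent from the lists of H4 and 42MGBA. Both parental lines, H4 and 42MGBA, were derived from human GBM, and each carries its own naturally occurring truncating mutation of the endogenous STAG2 gene. Their derivatives H4 88-1 and 42MGBA 53-1 had that mutation corrected by gene editing. Each derivative is 1 clone, so that a clone's own features and the correction cannot be told apart within a system. All 4 lines were grown in the same serum-containing medium without drug treatment. A list was made by the authors for each line from the Hi-C libraries of its 2 replicates combined, and ends after the 300000 strongest pairs. There is 1 value per pair and line, with no read counts and no replicate values, so that no error can be attached to a strength and no difference between lines was tested. Every value below describes these libraries.

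Cohesin is a ring-shaped complex that extrudes chromatin into loops, and it carries either STAG1 or STAG2 as its stromal antigen subunit. Extrusion is often halted where CTCF is bound, most readily at sites that face each other across the loop. Cohesin with STAG1 is known mainly for long-lived contacts between CTCF sites, and cohesin with STAG2 for shorter contacts within domains, including those of promoters with enhancers. Hi-C counts ligation junctions between fragments that lay close together in the nucleus. Loop strength is here the contact level of an anchor pair after bias correction, relative to the level expected, and loop size is measured from the midpoint of one anchor to that of the other.

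Some corrected-only pairs ended at sequences that resemble the CTCF binding motif, and those of 3 loci described below are shown so that a reader can see what lies in the anchors. The motif searched was the conserved core of the CTCF site, spelled CC, 3 bases of any kind, AGG, 1 base of any kind and GGC, on both strands of each anchor. A match is a resemblance of letters and is no evidence of binding. The windows below are outside annotated exons and are written in the 5′ to 3′ direction of the matching strand, with the match in capitals, from the GRCh37 assembly that carries the hg19 coordinates of the lists. The first 3 come from the strongest pair of the PLXNA1 locus, in an intron of CHCHD6 on its distal side and then just before the start of PLXNA1 and in its first part, the next from the downstream anchor of the PKNOX2 locus, and the last from the MGAT4A anchor of the MGAT4A to CRACDL locus.
PLXNA1 distal anchor, chr3:126471219-126471278, plus strand: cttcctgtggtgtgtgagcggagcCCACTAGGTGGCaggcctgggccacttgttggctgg
PLXNA1 start anchor, chr3:126701464-126701523, plus strand: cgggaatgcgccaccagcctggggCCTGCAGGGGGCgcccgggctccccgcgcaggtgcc
PLXNA1 start anchor, chr3:126704053-126704112, plus strand: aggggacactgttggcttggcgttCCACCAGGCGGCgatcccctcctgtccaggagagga
PKNOX2 downstream anchor, chr11:125215798-125215857, minus strand: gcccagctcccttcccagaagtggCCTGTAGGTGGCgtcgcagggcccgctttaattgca
MGAT4A anchor, chr2:99251387-99251446, plus strand: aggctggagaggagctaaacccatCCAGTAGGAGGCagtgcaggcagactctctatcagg

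The corrected-only pairs were mostly of low strength. In H4 88-1 their strength ran from 4.44 to 9.73 with a median of 4.92, against a median of 5.52 and a maximum of 34.3 over that whole list. In 42MGBA 53-1 it ran from 4.28 to 8.82 with a median of 4.76, against 5.20 and 33.7 over the list. Strong loops were thus nearly absent from the class, and its best rank was 17287 in H4 88-1 and 18745 in 42MGBA 53-1. Low strengths are favoured by the choice of pairs, which used strength, so that these values are a description only. Only 423 of the 7635 pairs (5.54%) were among the 100000 strongest of H4 88-1, and 571 (7.48%) among those of 42MGBA 53-1. The weakest 100000 pairs of each list held 58.9% of the class in H4 88-1 and 53.6% in 42MGBA 53-1.

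Listing depends on where each list ends. The H4 list ended at a strength of 4.14 and that of H4 88-1 at 4.44, whereas the 42MGBA list ended at 4.49, above the 4.28 of its corrected derivative. The member nearest the limit in H4 88-1 had 4.4442 against a lowest listed value of 4.4441, and in 42MGBA 53-1 the nearest had 4.2752 against 4.2751. On the other side, a pair listed in both corrected lines was kept out by a strength of 4.1440 in H4, the last value of that list, and another by 4.4880 in 42MGBA, where the list ended at 4.4879. With lists of only the 100000 strongest pairs the same rule gave 2544 pairs, of which 47 were among the 7635. A further 12765 pairs were listed in both corrected lines and in H4 but not 42MGBA, and 19370 in both corrected lines and in 42MGBA but not H4. Over all listed pairs, 235889 were in 1 list, 154535 in 2, 71263 in 3 and 110313 in all 4. The corrected-only class made up 4.94% of the pairs in exactly 2 lists, and the 8959 mutant-only pairs, listed in H4 and 42MGBA alone, made up 5.80%.

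Since a pair absent from a list can be at most as strong as the last pair of that list, its strength in the corrected line divided by that value is a lower bound of its fold difference. Of pairs in either list of a system, 22.4% were listed in H4 88-1 and not H4, and 24.2% in 42MGBA 53-1 and not 42MGBA. In the H4 system the bound had a median of 1.19 and a maximum of 2.35 over the 7635 pairs. In the 42MGBA system the median was 1.06 and the maximum 1.97, and for 1928 pairs the value was below 1, so that for these no direction in 42MGBA follows from the lists. With the lists scaled to their median over pairs in all 4 lists, the number below 1 was 0 in the 42MGBA and 159 in the H4 system. A bound of 1.5 or more was reached by 415 pairs (5.44%) in the H4 system and by 84 (1.10%) in the 42MGBA system. Only 8 pairs reached it in both systems. Of all pairs in either list, 2.92% in the H4 and 0.485% in the 42MGBA system were 1.5-fold or more higher in the corrected line. Those shares are of an unlike measure. They use the measured fold of pairs in both lists, and their base includes pairs listed only in the mutant line. These values come from the contrast that chose the pairs and support nothing about them.

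The corrected-only pairs were short, although size was no part of their choice. Their median size was 199 kb, with quartiles of 131 and 313 kb and a maximum of 1357 kb. Mutant-only pairs had a median of 442 kb with quartiles of 261 and 665 kb, and pairs in all 4 lists a median of 305 kb. Pairs listed in both 42MGBA lists alone were also short, with a median of 252 kb, and those in both H4 lists alone had 373 kb. Sizes under 100 kb made up 14.7% of corrected-only pairs and 14.5% of pairs in both 42MGBA lists alone. Sizes of 500 kb or more were found in 8.91% of corrected-only, 42.2% of mutant-only and 23.7% of all listed pairs. At 1000 kb or more there were 38 corrected-only and 824 mutant-only pairs. The medians of the 2 classes differed by -242.9 kb (SD of this difference over 23 chromosomes, 93.2 kb). The difference was negative on 22 of 23 chromosomes, with chromosome 19 as the exception, and corrected-only pairs were shorter at the median than all listed pairs on 23 of 23. Chromosome medians of corrected-only pairs ran from 82.1 kb on chromosome 19 to 303 kb on chromosome 5. Chromosomes of 1 library are not replicates, and these counts carry no test.

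**Figure D1:**
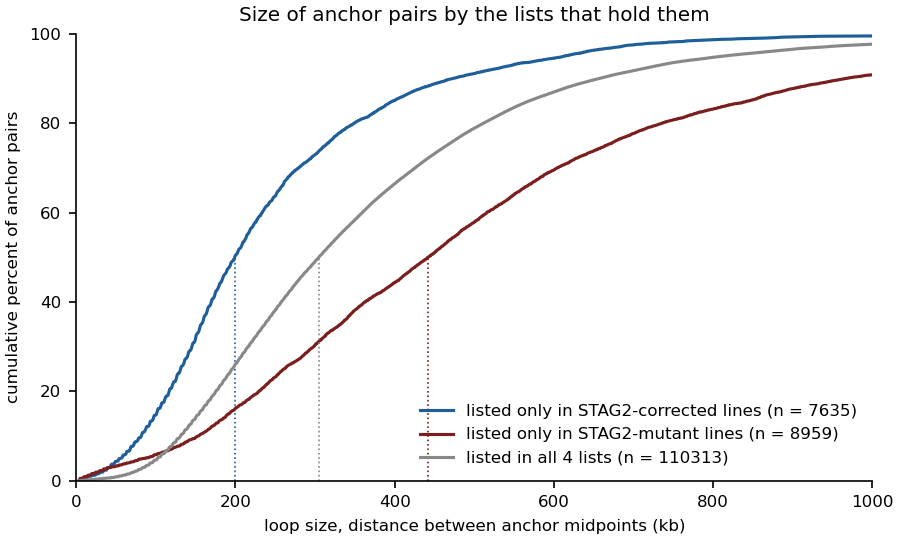
Cumulative percent of anchor pairs (vertical axis) by loop size in kb (horizontal axis, shown up to 1000 kb) for the corrected-only, mutant-only and 4-list classes, with dotted lines at the medians. The corrected-only curve lies to the left, with a median of 199 kb against 305 kb for pairs in all 4 lists and 442 kb for mutant-only pairs.

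List composition moved with size, and its part in the difference was not tested. Among the weakest 100000 pairs of a list, where most corrected-only pairs lay, H4 88-1 had a median size of 304 kb against 336 kb for H4, and 42MGBA 53-1 had 239 kb against 291 kb for 42MGBA. Among the strongest 100000 pairs the medians were 320 kb against 363 kb in the H4 system, and 277 kb against 325 kb in the 42MGBA system. In the ranks between, they were 312 kb against 346 kb, and 254 kb against 304 kb. Each corrected list was thus shorter at the median than its mutant counterpart in every range, and corrected-only pairs were shorter than either corrected list.

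A pair absent from a list often had a listed neighbour there. With both anchors allowed to lie within 10 kb, 70.1% of corrected-only pairs had a neighbouring pair in H4, 76.1% in 42MGBA and 59.1% in both. In 81.9% of the pairs with a neighbour in 42MGBA, the strongest neighbour was stronger than the corrected-only pair itself was in 42MGBA 53-1, and in H4 the same was true of 59.3% against H4 88-1. Most corrected-only pairs were therefore next to a contact that the mutant lines also listed. The 989 pairs (13.0%) with a neighbour in neither mutant list had a median size of 170 kb, against 203 kb for the others, and nearly the same median bounds, 1.19 in the H4 and 1.06 in the 42MGBA system. Mutant-only pairs had no neighbour in either corrected list at a like rate of 13.2%. Within 25 kb, 540 corrected-only pairs (7.07%) were without a neighbour in a mutant list.

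The pairs lay in patches. Joining pairs whose anchors were both within 10 kb gave 2687 groups, of which 1280 held a single pair, 434 held 5 or more and 114 held 10 or more. Groups of 5 or more held 49.2% of the pairs. Mutant-only pairs were as patchy. They gave 3109 groups, of which 1448 held a single pair, and groups of 5 or more held 49.4% of them. Neighbouring pairs pass together through the enhancement step, which works on an image of the contact map, and so are not independent of each other. For each group of 5 or more, the smallest rectangle that covers its anchors was searched in all 4 lists. The rectangle was empty in both mutant lists for 89 of the 434 groups, and in 1 or both for 223. Empty rectangles are favoured by the choice of pairs, each of which had to be absent from both mutant lists. No like count was made for mutant-only groups, so that these numbers are a description only.

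The largest group, of 58 pairs on chromosome 7, joined TNS3, which encodes the focal adhesion protein tensin 3, to PKD1L1, of the polycystin family, and 30 of its pairs had an anchor within 3 kb of an annotated transcript start. Those of PKD1L1 are of transcripts that start inside the gene. Its anchors covered chr7:47595240-47653809 and chr7:47795000-47872607. H4 had 19 listed pairs in this rectangle with a strongest of 6.31, and H4 88-1 had 126 with a strongest of 11.0. In 42MGBA there were 44 with a strongest of 9.05, and in 42MGBA 53-1 there were 130 with a strongest of 11.8. Pairs were thus listed here in all 4 lines, with more in both corrected lines, a direction that the choice of pairs favours. The corrected-only pair with the largest summed log2 bound over both systems was 248 kb long, with 6.35 in H4 88-1 and 7.02 in 42MGBA 53-1, which gave bounds of 1.53 and 1.57.

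The PKNOX2 group held 37 pairs that joined a region around the start of this TALE homeobox transcription factor gene (chr11:124993019-125051422) to a region inside the gene (chr11:125202124-125231124), and 15 of them had an anchor within 3 kb of an annotated start. This rectangle had no listed pair in H4 against 52 in H4 88-1, and 10 in 42MGBA against 58 in 42MGBA 53-1. The strongest was 7.36 in H4 88-1, 5.15 in 42MGBA and 6.52 in 42MGBA 53-1. H4 was therefore without a listed pair here, and 42MGBA had fewer than 42MGBA 53-1 and a weaker strongest one. That direction too is favoured by the choice of pairs. The corrected-only pair with the largest summed bound, 189 kb long, had 6.96 in H4 88-1 and 6.04 in 42MGBA 53-1, with bounds of 1.68 and 1.35, and its downstream anchor holds the CTCF motif match on the minus strand shown above.

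The MSRB3 group had a like pattern. It held 35 pairs that joined a region with annotated starts of MSRB3, a methionine sulfoxide reductase gene (chr12:65698603-65723419), to a region past its end (chr12:65915710-65973290) with no protein-coding gene. H4 listed no pair in this rectangle, H4 88-1 listed 47, 42MGBA listed 4 and 42MGBA 53-1 listed 45. The strongest pair was 7.72 in H4 88-1, 4.85 in 42MGBA and 6.02 in 42MGBA 53-1. In this group 16 of the 35 pairs were at a start, and 19 had no neighbour in a mutant list. At the TNFSF4 group, 26 pairs, 16 of them at a start, linked the region around the start of the OX40 ligand gene TNFSF4 (chr1:173164238-173178836) to a region with no protein-coding gene (chr1:172831219-172889552). Here 1 pair was listed in H4 against 34 in H4 88-1, and none in 42MGBA against 28 in 42MGBA 53-1.

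**Figure D2:**
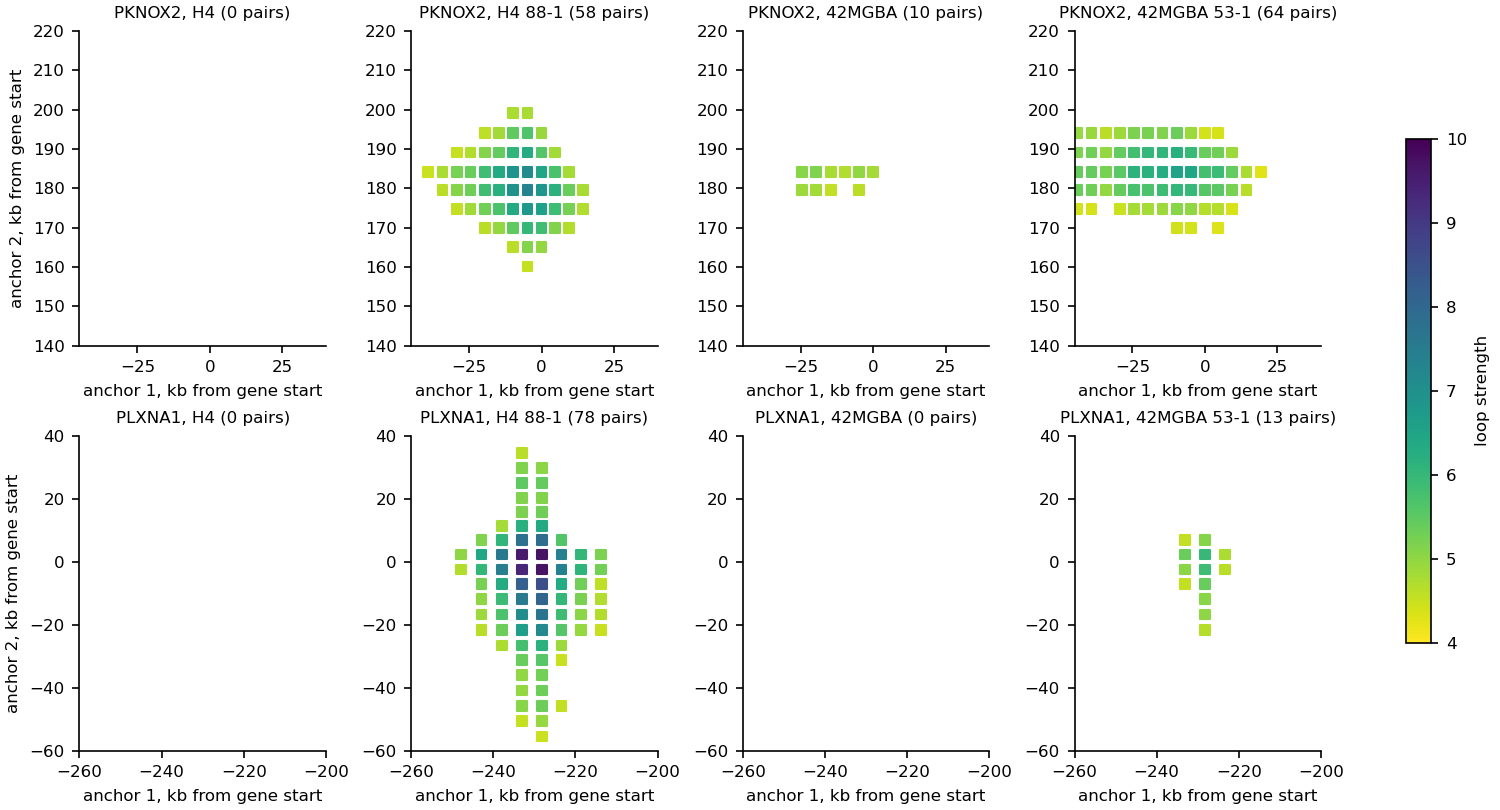
Listed anchor pairs around the PKNOX2 contact (top) and the PLXNA1 contact (bottom) in each line, with the midpoints of both anchors in kb from the gene start on the axes and loop strength as colour. H4 lists 0 pairs in either window, 42MGBA lists 10 at PKNOX2 and 0 at PLXNA1, H4 88-1 lists 58 and 78, and 42MGBA 53-1 lists 64 and 13.

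The remaining 6 of the 10 largest groups had listed pairs in both mutant lines. The ADAMTS17 group (30 pairs), at a gene for a secreted metalloprotease on chromosome 15, had 11 listed pairs in H4 against 56 in H4 88-1, and 1 in 42MGBA against 50 in 42MGBA 53-1. The group of TGFBR1 (30 pairs), which encodes the type I receptor for TGF-beta, ran to the neighbouring collagen gene COL15A1 and had 8, 68, 31 and 77 listed pairs in the same order of lines. That of MYH9, nonmuscle myosin heavy chain IIA, and TXN2, mitochondrial thioredoxin (30 pairs), had 20, 69, 33 and 92. The group that joined DDX56, OGDH and TMED4 to ZMIZ2 and PPIA on chromosome 7 (38 pairs) had 34, 98, 35 and 88. The MGAT4A to CRACDL group (31 pairs) had 51, 86, 50 and 98, and the group of RGL1 and COLGALT2 (26 pairs) had 29, 69, 36 and 73. In these last 3 groups each corrected-only pair had a neighbour within 10 kb in at least 1 mutant list. At MGAT4A the strongest pair in the rectangle was even 11.0 in H4 and 11.7 in 42MGBA, against 11.2 in H4 88-1 and 13.8 in 42MGBA 53-1, and the corrected-only pairs there reached at most 6.46.

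**Figure D3:**
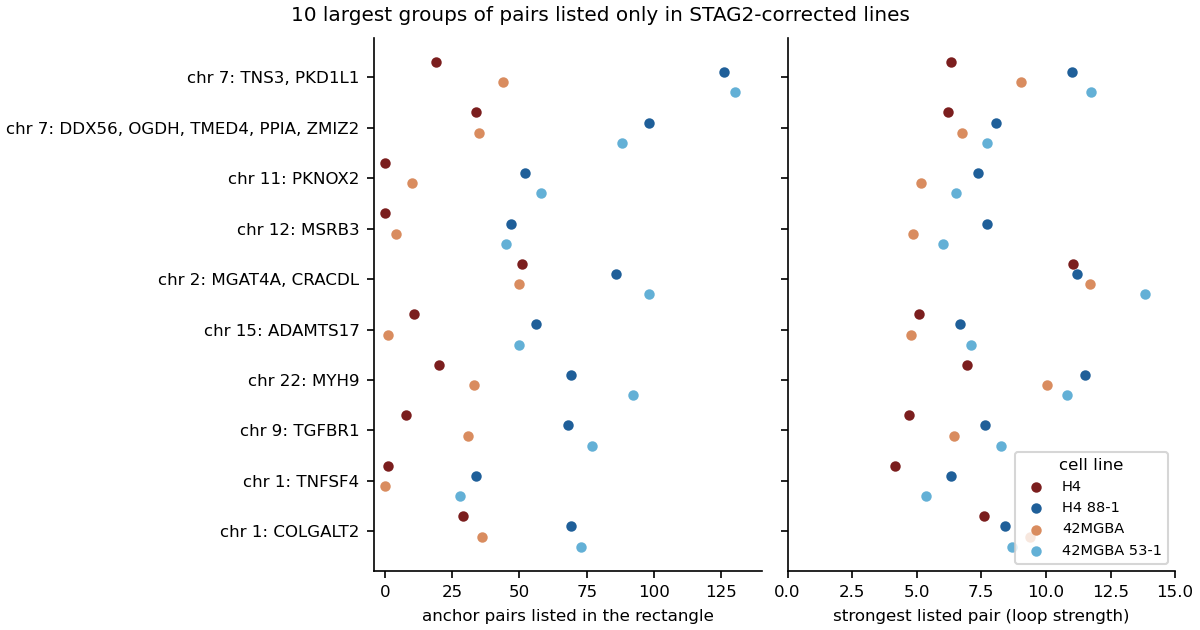
For the rectangles of the 10 largest groups, the number of listed anchor pairs (left) and the strongest listed pair (right, loop strength) in each of the 4 lines, with no point on the right where a line listed none. Both corrected lines listed more pairs than both mutant lines in all 10 rectangles, a direction that the choice of pairs favours, and H4 listed 0 at PKNOX2 and MSRB3.

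Among groups whose rectangle was empty in both mutant lines, the 2 largest held 16 pairs each. The first joined SLC38A2, a glutamine transporter gene, to a region about 148 kb away at the median, with 17 listed pairs in each corrected line and a strongest of 6.29 in H4 88-1 and 6.56 in 42MGBA 53-1. A second SLC38A2 group of 11 pairs, 97.9 kb long at the median, was also empty in both mutant lists. The other group of 16 joined parts of TXNRD1, thioredoxin reductase, and EID3, with strongest values of 5.57 and 6.69. A group of 14 joined MOK, a kinase gene, and ZNF839, a zinc finger gene, on chromosome 14. PLXNA1, which encodes a semaphorin receptor, had a group of 13 pairs. Smaller ones were at GSE1 (11 pairs), at SPECC1L and ADORA2A with UPB1 (10 pairs), and between LHX4, a LIM homeobox gene, and ACBD6 (9 pairs).

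The 10 pairs with the largest summed log2 bounds came from 6 loci. The first joined a region inside POGZ, a chromatin regulator gene, at chr1:151412249-151416708 to an anchor with no protein-coding gene at chr1:151708950-151713723. It was 297 kb long, with 9.37 in H4 88-1 and 7.18 in 42MGBA 53-1 and bounds of 2.26 and 1.60, and its strongest neighbour was 5.68 in H4 and 5.25 in 42MGBA. The PLXNA1 pair followed (231 kb, 9.73 and 5.98, bounds 2.35 and 1.33), between an anchor inside CHCHD6 (chr3:126470869-126475771) and the start of PLXNA1 (chr3:126701381-126706338). No neighbour of it was listed in either mutant line. The distal anchor has a plus-strand and a minus-strand motif match and the anchor at the start has 2 plus-strand matches. A 54.5 kb pair of FMNL3, a formin gene, with TMBIM6 had 6.90 and 7.89, with no neighbour in H4 and one of 7.42 in 42MGBA. A 166 kb pair on chromosome X had 7.39 and 6.95, with a strongest neighbour of 4.57 in H4 and 4.74 in 42MGBA. Its anchors overlap no protein-coding gene, though the first overlaps an annotated exon. The 48.4 kb pair next to TXN2 (5.92 and 8.28) and the 77.9 kb pair of MOK and ZNF839 (7.29 and 6.67) had no neighbour in either mutant line. In 42MGBA 53-1 the PLXNA1 pair was weaker than the POGZ, FMNL3 and MOK pairs, although it was the strongest of all in H4 88-1.

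The 7635 pairs used 9149 distinct anchors out of 128561, and 62.7% of these anchors were in a single corrected-only pair. At the other end, 25 anchors were in 10 or more, up to 22 at chr10:92351188-92355987. Neither this anchor nor its neighbour at chr10:92346195-92351187, with 19, overlaps a protein-coding gene. The anchor with 22 was in 20 listed pairs in H4 against 50 in H4 88-1, and 20 in 42MGBA against 50 in 42MGBA 53-1, and its neighbour in 25, 52, 9 and 56. Anchors with 13 corrected-only pairs lay on chromosome 16 outside genes (chr16:87089968-87094913), in TXN2 (chr22:36860780-36865780) and at a transcript start inside PKD1L1 (chr7:47862713-47867641). A mutant-only pair was also carried by 673 of them, which is 7.36% of corrected-only anchors and 6.44% of the 10448 mutant-only anchors. Of all anchors, 8.13% carried a mutant-only and 7.12% a corrected-only pair, so that the shared anchors were close to these shares.

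Corrected-only pairs were spread unevenly over the chromosomes. Overall 1.33 of 100 listed pairs were corrected-only. The values were 2.62 on chromosome 16, 2.61 on 19, 2.09 on 5 and 2.04 on 10, and at the low end 0.657 on chromosome 6, 0.769 on 7, 0.844 on 3 and 0.891 on 11. Chromosome 5 held 788 corrected-only pairs, 10.3% of the class against 6.59% of all listed pairs. Mutant-only pairs, 1.57 of 100 over all chromosomes, were fewer on chromosome 16 (0.806) and more on chromosomes 11 (2.84) and 6 (2.64), whereas on chromosomes 7 (1.17) and 3 (1.15) both classes were below their overall values. The level of shared loops moved along on some of these chromosomes. Over pairs in all 4 lists, the median log2 ratio of corrected to mutant strength was 0.10 in the H4 and -0.11 in the 42MGBA system, and it was 0.19 and 0.01 on chromosome 16, 0.11 and -0.31 on chromosome 11, and 0.08 and -0.26 on chromosome 6. The part of these chromosome-wide levels in the counts was not tested.

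**Figure D4:**
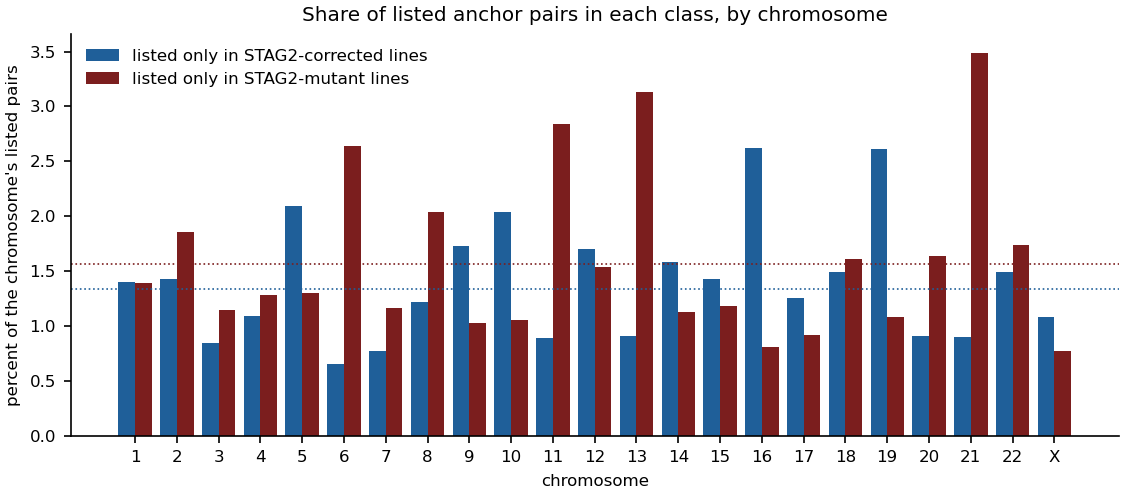
Percent of each chromosome's listed anchor pairs that were corrected-only (blue) or mutant-only (red), with dotted lines at the values over all chromosomes, 1.33 and 1.57. Chromosomes 16 and 19 have the tallest blue bars, 2.62 and 2.61, and chromosome 6 the shortest, 0.657.

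At least 1 anchor within 3 kb of the start of a protein-coding gene was found for 49.6% of corrected-only pairs, 41.4% of mutant-only pairs, 47.1% of pairs in all 4 lists and 44.5% of all listed pairs. Both anchors were at starts in 11.9%, against 8.97% of all listed pairs. Short pairs reach starts more often whatever their class. At matched sizes the order of the classes changed. Under 100 kb the share at a start was 61.5% for corrected-only, 79.7% for mutant-only, 65.5% for 4-list and 57.7% for all listed pairs. From 100 to 200 kb it was 54.9%, 55.3%, 57.3% and 52.9% in the same order of classes, and from 200 to 300 kb it was 47.7%, 52.7%, 49.96% and 46.3%. Pairs with both anchors inside 1 gene made up 9.94% of corrected-only and 10.6% of all listed pairs. Below 100 kb the shares were 23.5% of corrected-only, 25.2% of 4-list, 48.4% of mutant-only and 40.5% of all listed pairs.

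Of 10015 protein-coding genes with a listed pair at a start, 1675 (16.7%) had a corrected-only pair there, 1738 (17.4%) a mutant-only pair and 388 both. Genes with many listed pairs had more chances, since the 1675 genes had a median of 40 listed pairs at their starts against 16 over all 10015. A single corrected-only pair was seen at 634 genes and 10 or more at 81. Counts of pairs at a gene come from the contrast that chose them and are given as a description.

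The gene with the most was PKD1L1, with 37 corrected-only pairs in 5 groups, followed by the alpha-actinin gene ACTN1 with 25 and the cold-sensing channel gene TRPM8 with 23. PKD1L1 had 452 listed pairs at its starts in H4 against 494 in H4 88-1, and 216 in 42MGBA against 249 in 42MGBA 53-1, and its strongest pair was in H4 (18.0), so that its 37 pairs were a small part of its contacts. ACTN1 had 81, 117, 83 and 134 pairs in the same order. SLC38A2 had 21 corrected-only pairs, and 37, 89, 75 and 116 listed in all. ZMIZ2, a transcriptional coactivator gene, had 18 from a single group, and its starts had only 2 listed pairs in H4 and 10 in 42MGBA against 40 in H4 88-1 and 37 in 42MGBA 53-1. TNS3 and TGFBR1 also had 18, and the kelch protein gene ENC1 had 17. DNMT1, the maintenance DNA methyltransferase, had 16, all inside the gene and 34.2 kb long at most, with strengths of at most 5.87. AOPEP, an aminopeptidase gene, likewise had 16 inside the gene. The others with 16 were TNFSF4, MSRB3, the collagen VI gene COL6A3 and ARHGEF28. With 15 each came PKNOX2, the ubiquitin ligase gene HECTD3, the uracil glycosylase gene SMUG1, TBPL2, HOXB3 and TTC7A, and CALM2, ST3GAL5 and ADAMTS6 tied with them.

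Among the listed transcription factors with 5 or more corrected-only pairs, PKNOX2 had the fewest pairs at its starts in the mutant lines. Low counts there are favoured by the choice of pairs, and factors without a corrected-only pair were not part of this ranking. The starts of PKNOX2 had 1 in H4 against 31 in H4 88-1, and 3 in 42MGBA against 24 in 42MGBA 53-1. The strongest was 4.15, 7.36, 4.99 and 6.42 in the same order. Of 11 TALE homeobox genes with a listed pair, 3 had a corrected-only pair (PKNOX2 with 15, MEIS1 and TGIF1 with 1 each) and 1 had a mutant-only pair. Of 8 SOX and PAX genes the count was 2 and 2, with 7 pairs at SOX13, whose starts had 36, 49, 25 and 31 listed pairs in the order of lines used above. Among 15 basic helix-loop-helix and glial regulator genes 1 had a corrected-only pair, NFIX with 12, and 6 had a mutant-only pair, NFIX among them with 9. TCF4, an E-protein gene, had 8 mutant-only and no corrected-only pair, and the 2 systems differed there. Its starts had 40 listed pairs in H4 against 41 in H4 88-1, and 29 in 42MGBA against 12 in 42MGBA 53-1. The strongest was 6.99, 9.52, 5.97 and 5.37 in the same order of lines. Of 19 AP-1, TEAD and mesenchymal regulator genes, 5 had a corrected-only pair and 7 a mutant-only pair. CEBPB, a bZIP factor gene, had 10 corrected-only pairs of at most 5.94, next to far stronger contacts of 25.2 in H4 against 22.3 in H4 88-1, and 36.0 in 42MGBA against 33.7 in 42MGBA 53-1.

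For secreted ligands and their receptors the counts were also mixed. Of 12 WNT and FGF ligand genes, 4 had a corrected-only and 4 a mutant-only pair. FGF18 had 14 corrected-only pairs of 431 to 499 kb, and its starts had 7 listed pairs in H4 against 31 in H4 88-1, and 9 in 42MGBA against 26 in 42MGBA 53-1. WNT9A had 5, with 7, 19, 12 and 21. Of 18 genes listed for the TGF-beta and BMP pathway, a list to which EDN1 was added as a gene the study names, 5 had a corrected-only pair (TGFBR1 with 18, EDN1 with 7, INHBA and INHBB with 3 each, and the BMP antagonist NOG with 2) and 6 a mutant-only pair. TGFBR1 had 30, 69, 33 and 69 listed pairs, with a strongest of 7.99 in H4 against 12.7 in H4 88-1, and 7.77 in 42MGBA against 10.6 in 42MGBA 53-1, so that both corrected lines were above both mutant lines. EDN1, the endothelin 1 gene, had 79, 90, 44 and 75, and its 7 corrected-only pairs of 180 to 209 kb reached 6.12 in H4 88-1 and 6.02 in 42MGBA 53-1. NOG had none in H4 against 10 in H4 88-1, and 2 in 42MGBA against 4 in 42MGBA 53-1.

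Of 19 receptor tyrosine kinase genes, 4 had a corrected-only pair and 3 a mutant-only pair. PDGFRB had 9 corrected-only pairs, with 18 listed pairs in H4 against 46 in H4 88-1, and 24 in 42MGBA against 34 in 42MGBA 53-1 and a strongest of 5.75, 10.2, 5.89 and 7.67. DDR1 had 2, and AXL and EPHA2 had 1 each. Among 22 axon guidance genes, 6 had a corrected-only and 7 a mutant-only pair. PLXNA1 had 6, and no pair at its starts was listed in either mutant line, against 21 in H4 88-1 with a strongest of 9.73 and 6 in 42MGBA 53-1 with a strongest of 5.98. The contact at PLXNA1 was thus narrower and weaker in the 42MGBA system than in the H4 system. SLIT3, a ligand of ROBO receptors, had 6 that were 878 to 892 kb long, while SEMA3A, SEMA3D, SEMA5A and NRP2 had 1 each.

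Extracellular matrix and adhesion genes had more mutant-only than corrected-only members, with 12 and 7 of 26 genes. COL6A3 had 16 corrected-only and 12 mutant-only pairs among 571 listed. The collagen V gene COL5A1 had 11, and its starts had 4 listed pairs in H4 against 66 in H4 88-1, and 37 in 42MGBA against 79 in 42MGBA 53-1, with a strongest of 4.42, 10.1, 6.33 and 7.89. The integrin gene ITGB1 had 6, all inside the gene. COL1A1 and FN1 had 3 each, ITGB3 had 2 and the laminin gene LAMC1 had 1. Of 15 cohesin and Polycomb genes, 1 had a corrected-only pair and 3 had a mutant-only pair. EED, a core subunit of Polycomb repressive complex PRC2, had 12 corrected-only and 4 mutant-only pairs, with 80 listed pairs at its starts in H4 against 128 in H4 88-1, and 100 in 42MGBA against 71 in 42MGBA 53-1. STAG2 itself and HEPH had no listed pair at a start in any line, and SH3RF3 had 149 listed pairs and no corrected-only one. The starts of SH3RF3 had 39 listed pairs in H4 against 87 in H4 88-1, and 116 in 42MGBA against 147 in 42MGBA 53-1. Its strongest pair was 11.7, 14.4, 16.5 and 14.1 in the same order of lines. The counts of the 10 lists carry no test and are to be read against the 16.7% and 17.4% over all genes.

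**Figure D5:**
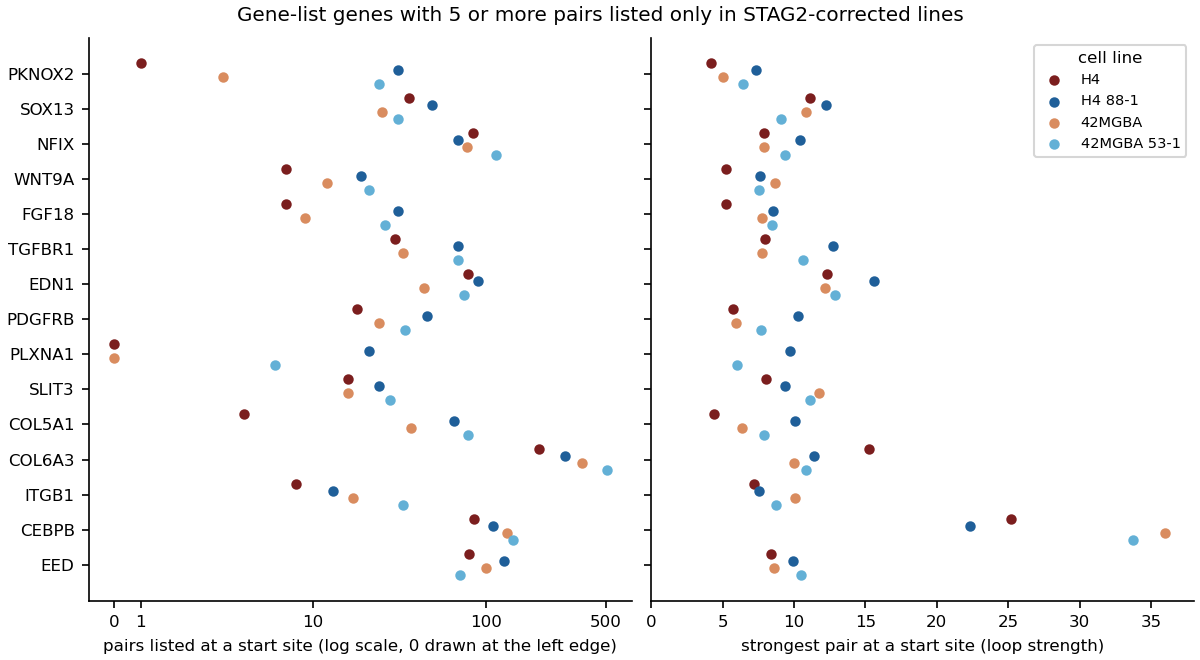
Number of pairs listed at a start site (left, log scale) and strength of the strongest (right) in each line, for genes of the 10 lists with 5 or more corrected-only pairs. PKNOX2 and PLXNA1 have the fewest pairs in the mutant lines (1 and 3, and 0 and 0), whereas COL6A3 and CEBPB have over 80 in every line. Low counts in the mutant lines are favoured by the choice of pairs.

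The CTCF motif core was found in 18.1% of corrected-only anchors, 14.5% of mutant-only anchors, 16.8% of anchors of pairs in all 4 lists and 14.4% of all listed anchors. With CCAC as its first 4 bases the shares were 2.81%, 2.57%, 2.82% and 1.93%. Base composition moved with this share, since the median GC content of these anchors was 43.5%, 41.3%, 42.5% and 41.8%, and its part was not tested. Both anchors had a match in 4.01% of corrected-only pairs and 3.10% of all listed pairs, and neither had one in 67.2% and 70.9%. Matches that faced each other, with a plus-strand match at the first anchor and a minus-strand match at the second, were seen in 120 corrected-only pairs (1.57%), and the reverse arrangement in 72 (0.943%). The same shares were 1.69% and 0.623% for pairs in all 4 lists, 0.871% and 0.380% for mutant-only pairs, and 1.25% and 0.649% for all listed pairs. Under 100 kb facing matches were seen in 3.47% of corrected-only, 1.53% of mutant-only, 3.81% of 4-list and 1.86% of all listed pairs. From 100 to 200 kb the shares were 1.69%, 1.62%, 2.36% and 1.70% in the same order of classes. From 200 to 300 kb they were 0.985%, 1.34%, 1.64% and 1.25%. Between 300 and 500 kb the shares were 1.08%, 0.528%, 1.31% and 1.03%, and at 500 kb or more 0.441%, 0.662%, 1.13% and 0.858%. Facing pairs were few in the first 2 classes. Corrected-only and mutant-only counts were 39 and 8 under 100 kb, and 46 and 15 from 100 to 200 kb. They were 17 and 17 from 200 to 300 kb, 15 and 13 from 300 to 500 kb, and 3 and 25 at 500 kb or more. The order of corrected-only and mutant-only pairs changed with size on these few pairs, and this change was not tested. Among the pairs with the largest summed bound of the 10 largest groups, matches were found at 3, namely PKNOX2, MGAT4A and ADAMTS17, each at only 1 anchor.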

How the data were processed

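For each of the 4 lines, 2 Hi-C libraries were made with the Arima Hi-C+ kit. Trimmed reads were mapped by the authors to hg19 with Bowtie (version not given in the sources used here), reduced to unique and non-duplicate pairs, binned into fragments and into anchors of about 5 kb, and passed through HiCorr for bias correction and DeepLoop for enhancement. What was deposited is a signal per anchor pair, called loop strength here, cut after the 300000 highest values of a line, with both libraries pooled. The number of reads behind a pair is unknown, so that no counting error is given. DeepLoop uses neighbouring pairs, so that their values can move together.

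Pairs were matched by identical anchors and joined into groups where both anchors lay within 10 kb. Anchors were compared with the starts of protein-coding genes of GENCODE release 44 within 3 kb and searched for the CTCF motif core in GRCh37, after 99.97% of tested anchor starts were found at restriction sites of the kit. The class of pairs and the lists of genes were chosen with earlier results of these data known. Named are the 10 largest groups, the 10 pairs with the largest summed log2 bound, the 20 genes with most pairs at their starts and those tied with the last, the 5 anchors in most pairs, PKNOX2, EDN1, SH3RF3, STAG2, TCF4, HEPH and the genes of 10 lists with a pair, with groups absent from both mutant lists named after their values were seen. The steps were tested on simulated lists with planted pairs. Scripts ran in Python 3.11.15 (pysam 0.24.0, pandas 2.3.3, numpy 2.4.6, matplotlib 3.10.9 and scipy 1.17.1). Alternatives changed the list length, the matching, the joining, the distances, the chromosomes, the scale and the motif. The 12 RNA-seq samples were not analysed here.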

Additional observations from a re-analysis of the deposited data

Results flagged for a closer look

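On chromosomes among the 3 with the most and the 3 with the fewest corrected-only pairs per 100 listed, the median log2 ratio of corrected to mutant strength over pairs in all 4 lists was above 0 in the H4 system and below 0 in the 42MGBA system for 5 of the 6. The ratios of the systems were apart by 0.34 on chromosome 6, 0.24 on chromosome 3, 0.20 on chromosome 19, 0.15 on chromosome 5 and 0.0900 on chromosome 7. With 1 pooled list per line this difference between systems was not tested. Over all chromosomes the same medians were 0.10 and -0.11, so that these chromosomes had the same pair of signs as the genome as a whole.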

How the results depend on the processing

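The number of corrected-only pairs depended on how they were defined. With only the 100000 strongest pairs of each list it was 2544, of which 47 were among the 7635, and with the 200000 strongest it was 5100, of which 1520 were. The class at one list length is thus mostly made of other pairs at another length. It was 989 when no mutant-line pair was allowed within 10 kb at both anchors, 638 when the strength had to be at least 1.2 times the lowest mutant strength in both systems, and 27187 when the 42MGBA 53-1 pair needed only to lie within 10 kb. The median size stayed between 170 and 209 kb under all 6 alternatives tried for it. The difference from mutant-only pairs was negative under all 6, and was -384.5 kb with pairs of the other genotype within 10 kb excluded and -168.5 kb with 1 pair for each group. The share at a start was 30.6% with the start inside the anchor and 70.7% within 10 kb, where all listed pairs had 27.0% and 65.3%. With all annotated genes, 11.5% of pairs were inside 1 gene, against 12.2% of all listed pairs. With the lists scaled to their median over pairs in all 4 lists, the median bound was 1.10 in the H4 and 1.16 in the 42MGBA system, and the number of values below 1 was 159 and 0. With a stricter motif that starts with CCAC, 2.81% of anchors had a match against 2.57% of mutant-only anchors, 2.82% of anchors of 4-list pairs and 1.93% of all listed anchors. Of 28 alternatives 17 left the value within its bounds. The bounds were 1.5 times for counts, the 95% Wilson interval for shares and 1 SD over chromosomes for medians. They served as labels only and are no errors, since neighbouring pairs and chromosomes are not independent replicates. Leaving out 1 chromosome could hardly move a value, and another distance or motif redefines a share. The tally is therefore no measure of how stable the results are. No paired analysis was possible because each list pools both replicates of a line, and for the same reason no replicate could be left out.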
